A study of Mus musculus with 19 samples.

Results

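The effect of losing Dnmt3a was examined in sorted CD4+CD8+ thymocytes that carried no leukemia oncogene. The 4 libraries are those of the gene count table labelled as GFP controls, 2 with Dnmt3a deleted and 2 with Dnmt3a intact, out of 17 libraries in the series. The Dnmt3a-deleted donor cells (KO-GFP) were Mx1-cre+ and Dnmt3af/f and carried the MSCV_GFP retrovirus. The wild-type donor cells (WT-GFP) were Mx1-cre+ and Dnmt3a+/+ and carried the same retrovirus. All were C57BL/6, and neither age nor sex is given in the labels. Transduced donor marrow was transplanted into recipients that had received a lethal dose of radiation, and CD4+CD8+ donor cells were later sorted from their thymus, so the cells of both groups matured in irradiated hosts. Both groups carry the Mx1-cre transgene, whose promoter responds to interferon and is active in blood stem cells and in other tissues, and no source used here says when or how Cre was induced. The labels give ckit enrichment of the donor marrow for KO-GFP and do not give it per sample for WT-GFP (the shared protocol names Sca1), so Dnmt3a status and donor enrichment cannot be told apart. The labels call the replicates biological without tying each to an animal, so p-values measure the spread between these libraries. Each WT-GFP library joins 2 technical sequencing runs. The other retroviral groups, which carry the FLT3-ITD oncogene, serve for comparison: KO-ITD leukemias (4 libraries, Dnmt3a deleted) and WT-ITD leukemias (3 libraries, Dnmt3a intact). Marrow of a separate Flt3-ITD knock-in model is used for a few genes. It comprises leukemias with Cre and both (1 library) or 1 (2 libraries) Dnmt3a alleles floxed, and pre-leukemic marrow with floxed alleles and no Cre (3 libraries).

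DNMT3A is a de novo DNA methyltransferase: it puts methyl groups on cytosines of CpG dinucleotides that carried none, and DNMT1 then copies the pattern at each cell division. In blood stem cells its loss is known to favour self-renewal over differentiation, and it is often mutated in acute leukemias. CD4+CD8+ cells, called double-positive thymocytes, are the stage at which the T cell receptor alpha chain is rearranged by RAG1 and RAG2 and cells are tested for positive selection. The comparison asks which transcripts differ at this stage when the blood system was rebuilt from cells with a deleted Dnmt3a gene.

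Total estimated counts were 16606964 and 19516952 in KO-GFP and 25034309 and 25331908 in WT-GFP. Across genes, log2 CPM (scaled counts per 1e6) correlated at 0.983 between the KO-GFP libraries, 0.987 between the WT-GFP libraries and 0.979 to 0.985 between libraries of different groups, so the 2 genotypes did not separate on this measure. The sorted cells had the expression of double-positive thymocytes in both groups. Cd4 was at 1546 and 1262 CPM in KO-GFP against 1249 and 1599 CPM in WT-GFP. Cd8a was at 1789 and 1593 CPM in KO-GFP against 1765 and 1735 CPM in WT-GFP. Rag1 was the most abundant of these markers, at 5890 and 4811 CPM in KO-GFP against 4679 and 4507 CPM in WT-GFP. Xist, the RNA of the inactive X chromosome, was at 2824 and 1790 CPM in KO-GFP against 1427 and 1594 CPM in WT-GFP, and Ddx3y, of the Y chromosome, had 1 and 0 counts in KO-GFP against 0 and 0 in WT-GFP. All 4 libraries therefore carry the transcripts of female cells, whichever the genotype. In bulk RNA of sorted cells, fewer cells of a type and less RNA per cell cannot be told apart.

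Dnmt3a itself (chromosome 12, from 3806980 to 3914443 on the plus strand of mm9 in the deposited gene models) was found at 206 and 143 CPM in KO-GFP against 251 and 241 CPM in WT-GFP. Both deleted libraries lay below both wild-type libraries, but the difference (log2 fold change -0.49, SE 0.18) did not pass the threshold (adjusted p = 0.573 over all genes; the test is edgeR's quasi-likelihood F test, adjusted by the Benjamini-Hochberg method, as throughout). The fold change rested on single libraries, at -0.79 without KO-GFP replicate 1 and -0.29 without KO-GFP replicate 2. The labels do not say which exons the floxed allele loses, and an allele that lacks some exons can still be transcribed and counted over the others. The gene-level count therefore checks the genotype only in part, and how much intact Dnmt3a message remained was not measured.

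The deposited models hold 3 Dnmt3a transcripts, which share 17 exons. Transcript NM_153743 starts at 3891744, spans 22.7 kb and encodes the shorter protein, while NM_007872 and NM_001271753 start far upstream of that point and span 107.5 and 107.3 kb. NM_153743 was estimated at 96.0 and 108 CPM in KO-GFP against 134 and 173 CPM in WT-GFP. NM_001271753 was estimated at 8.80 and 33.0 CPM in KO-GFP against 90.4 and 59.3 CPM in WT-GFP. For both of these transcripts the KO-GFP libraries lay below the WT-GFP libraries. NM_007872 showed no such order, at 99.1 and 2.58 CPM in KO-GFP against 27.1 and 8.92 CPM in WT-GFP. The log2 fold changes were -0.59 (SE 0.17) for NM_153743, -1.84 (SE 0.73) for NM_001271753 and 1.497 (SE 1.72) for NM_007872, and the last took the opposite sign, -2.80, without KO-GFP replicate 1. None of the 3 passed (adjusted p = 0.941, 0.941 and 0.97 in that order). Because the 2 long transcripts share nearly all of their sequence, the split between them rests on the authors' estimation. Over all 15928 transcripts tested, edgeR called 0 at an adjusted p under 0.05 (0%), with 764 (4.80%) at an unadjusted p under 0.05.

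**Figure D1:**
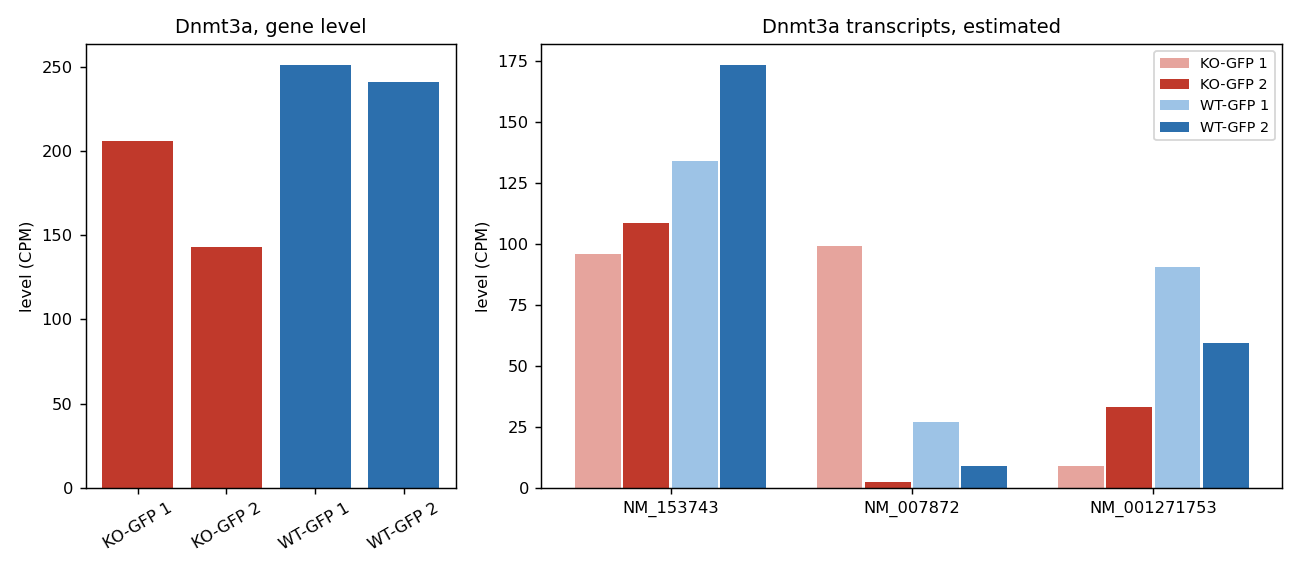
Dnmt3a in each library, as CPM at the gene level (left) and for 3 transcripts (right); bars are single libraries, KO-GFP in red and WT-GFP in blue. The KO-GFP bars are the lower ones at the gene level and for NM_153743 and NM_001271753, while NM_007872 is highest in KO-GFP 1 and lowest in KO-GFP 2.

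No other gene of the methylation machinery passed. Of 22 tested, 0 passed in either direction, 4 were higher and 1, Dnmt3a, was lower at an unadjusted p under 0.05 (5.43% and 3.03% of all genes tested), and the median log2 fold change was 0.12, beside 0.02 over all genes tested. Dnmt1, the maintenance methyltransferase, was at 491 and 509 CPM in KO-GFP against 410 and 321 CPM in WT-GFP (log2 fold change 0.45, SE 0.15, adjusted p = 0.573). Hells, a chromatin remodeller needed for methylation of repeats, was at 84.3 and 110 CPM in KO-GFP against 75.1 and 46.2 CPM in WT-GFP. Both are also genes of dividing cells, and the WT-GFP libraries differed from each other here by more than WT-GFP replicate 1 differed from KO-GFP replicate 1. The other genes higher at an unadjusted p under 0.05 were Tet3, a dioxygenase that oxidises methylcytosine, at 269 and 212 CPM in KO-GFP against 189 and 186 CPM in WT-GFP, and the glycosylase Mbd4, at 47.5 and 44.8 CPM in KO-GFP against 38.5 and 36.0 CPM in WT-GFP. Dnmt3b, the other de novo enzyme, stayed at a low level, 7.94 and 12.3 CPM in KO-GFP against 9.10 and 8.31 CPM in WT-GFP, and these ranges overlap. Uhrf1, which guides DNMT1 to replicating DNA, was at 368 and 433 CPM in KO-GFP against 353 and 249 CPM in WT-GFP. Dnmt3l, the catalytically inactive partner of the de novo enzymes, had 1 and 0 counts in KO-GFP against 0 and 1 in WT-GFP and was not tested.

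Over all genes, 3 of 12388 tested passed an adjusted p under 0.05 (0.0242%): Scand1 and Gm5506 rose and Mid1 fell in KO-GFP. At an unadjusted p under 0.05 there were 1048 genes (8.46%), 673 on the higher side (5.43%) and 375 on the lower side (3.03%). The next gene in rank had an adjusted p of 0.108. The 3 genes also changed by at least 2-fold. DESeq2 called 83 of 13985 genes on the same counts (0.593%), 61 higher and 22 lower, and these include the 3. They also include Usp18, Rsad2, Mki67, Cd2 and Blk, described below, where passed refers to edgeR's test.

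Scand1, a small protein with the SCAN domain of zinc finger factors (chromosome 2, mm9 positions 156137582 to 156138440, minus strand), was at 27.8 and 29.8 CPM in KO-GFP against 3.12 and 3.82 CPM in WT-GFP. The 2 libraries of each genotype lay close together and far from the other genotype (log2 fold change 3.05, SE 0.20, adjusted p = 0.0099). Mid1, a ubiquitin ligase that binds microtubules and regulates the phosphatase PP2A (X chromosome, mm9 positions 166123179 to 166428729, plus strand) stood at 8.52 and 8.25 CPM in KO-GFP against 49.01 and 52.3 CPM in WT-GFP (log2 fold change -2.59, SE 0.14, adjusted p = 0.00626). Mid1 crosses the pseudoautosomal boundary in C57BL/6, a region of repeated sequence in which reads are hard to place. Gm5506 was at 24.0 and 31.8 CPM in KO-GFP against 0.08 and 0.23 CPM in WT-GFP (log2 fold change 7.43, SE 0.40, adjusted p = 0.00626). In the deposited models the name Gm5506 stands at a pair of places, of which one is on chromosome 4 at 149611433 to 149622982, inside the gene of the glycolytic enzyme enolase, Eno1 (149611306 to 149622982). Reads of Eno1 can thus be counted under either name, and the value of Gm5506 is uncertain. Eno1 was at 290.2 and 290.1 CPM in KO-GFP against 367 and 323 CPM in WT-GFP and did not pass.

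The base sequence before the start of Scand1 is shown because it is the gene that passed and has 1 listed start, and CpG dinucleotides, the target of DNMT3A, are in capitals. It is the RefSeq sequence of the 250 bases before the start, chr2:156312705-156312954 in GRCm38, minus strand, written 5′ to 3′, and holds 12 CpG.
Scand1: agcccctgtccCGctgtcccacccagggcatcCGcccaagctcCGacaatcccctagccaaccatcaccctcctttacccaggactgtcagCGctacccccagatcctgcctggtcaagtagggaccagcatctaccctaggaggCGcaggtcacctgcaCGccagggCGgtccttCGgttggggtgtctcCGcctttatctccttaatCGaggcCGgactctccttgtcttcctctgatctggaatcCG
No methylation was measured in the files used here, so the state of these CpG sites in either genotype is not known. Mid1 has 3 starts in the same table, with 0, 5 and 9 CpG in the 250 bases before them.

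None of the 3 genes followed Dnmt3a status in every library of the series. CPM scaled over all 17 libraries are given here. Mid1 was at 30.9, 8.75, 3.38 and 12.1 CPM in KO-ITD leukemias against 34.7, 32.1 and 16.6 CPM in WT-ITD leukemias. KO-ITD replicate 1 reached the level of the WT-ITD libraries, while the other KO-ITD libraries lay below them. In knock-in marrow Mid1 was at 7.22 CPM in the leukemia with both alleles floxed and Cre. It was at 10.7 CPM or less in leukemias with 1 such allele. In pre-leukemic marrow without Cre it was at 11.3, 15.3 and 19.3 CPM. The order of Mid1 there was that of thymocytes, although disease state differs along with Dnmt3a status. Scand1 was at 6.84, 33.6, 18.5 and 13.4 CPM in KO-ITD against 39.3, 30.7 and 40.9 CPM in WT-ITD. Its order was thus the reverse of that in thymocytes, with 3 of 4 KO-ITD libraries below every WT-ITD library. In knock-in marrow its order was that of thymocytes. Scand1 was there at 19.5 CPM in the leukemia with both alleles floxed and Cre and at 18.3 and 20.5 CPM in leukemias with 1 such allele. In pre-leukemic marrow without Cre it was at 8.42, 5.70 and 8.76 CPM, and disease state again differs along with Dnmt3a status. Gm5506 was at 0.25, 82.8, 49.1 and 64.6 CPM in KO-ITD against 0.51, 1.09 and 2.14 CPM in WT-ITD, so KO-ITD replicate 1 was at the low level of wild-type libraries. In knock-in marrow Gm5506 was at 0.16 CPM in the leukemia with both Dnmt3a alleles floxed and Cre. It was at 43.8 and 125 CPM in leukemias with 1 such allele, and at 14.9, 29.98 and 35.5 CPM in pre-leukemic marrow with floxed alleles and no Cre. Gm5506 thus lay either at 2.14 CPM or less or at 14.9 CPM or more, and both states occur among libraries labelled with intact and with deleted Dnmt3a.

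**Figure D2:**
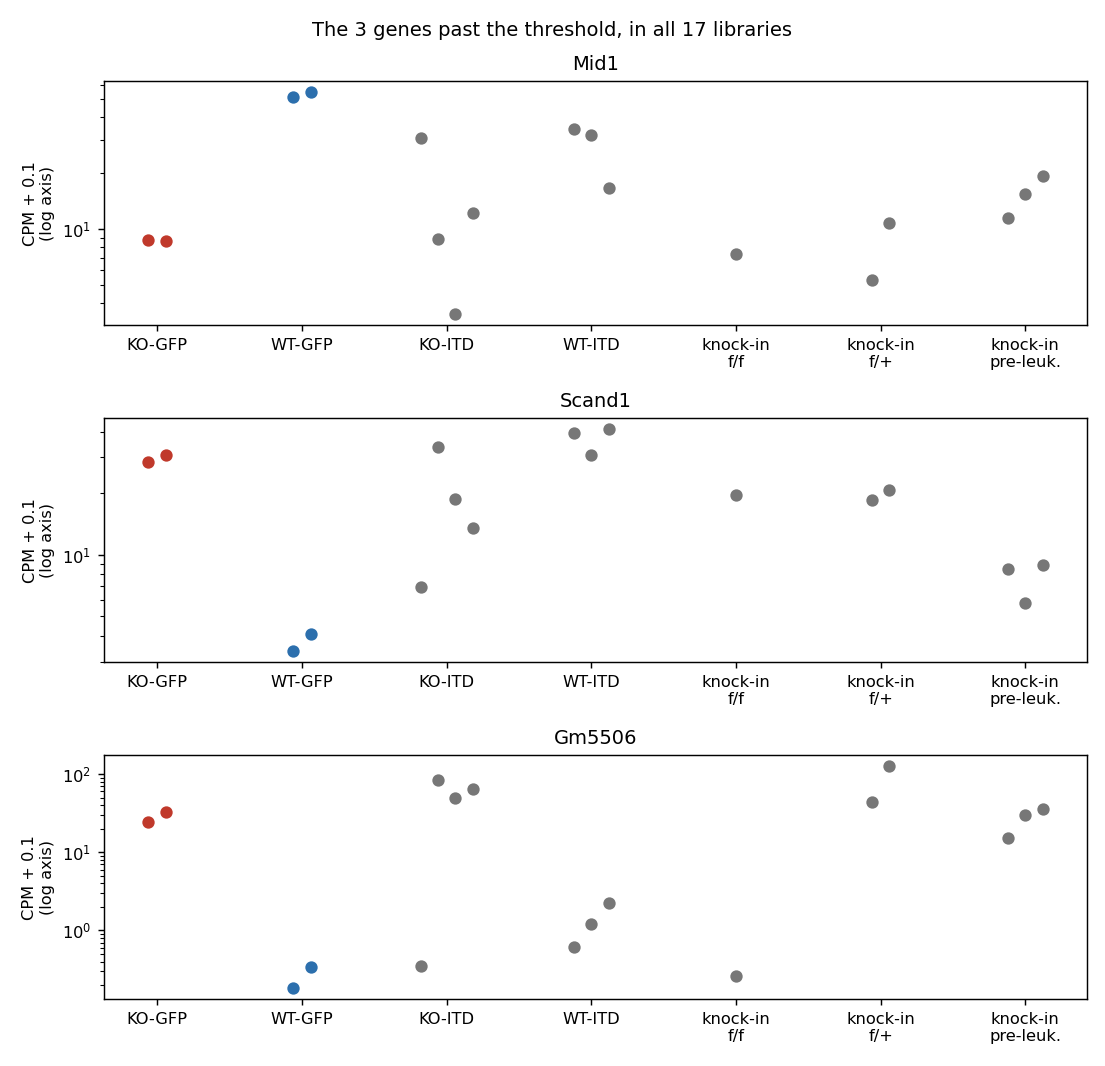
Mid1, Scand1 and Gm5506 in all 17 libraries (CPM + 0.1, log axis, 1 point per library). Knock-in groups are leukemias with Cre and both or 1 floxed Dnmt3a allele, or pre-leukemic marrow with floxed alleles and no Cre. Gm5506 is near 0 in WT-GFP, WT-ITD, 1 KO-ITD and the f/f library, and Scand1 is higher in KO-GFP than in WT-GFP but on the whole lower in KO-ITD than in WT-ITD.

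The second model of Gm5506 in the deposited annotation lies on chromosome 18 at 48204989 to 48208037, and the deposited count does not say at which place the reads lay.

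Because few genes passed, the genes with the smallest p in each direction are described with their values. Apart from Scand1 and Mid1 none of them passed edgeR's test, while DESeq2 called each of them. On the higher side stood Greb1, known as an estrogen-regulated cofactor of nuclear receptors, at 31.6 and 22.9 CPM in KO-GFP against 2.34 and 4.02 CPM in WT-GFP (log2 fold change 3.09, SE 0.31, adjusted p = 0.108). Zfp36l2, an RNA-binding protein that speeds the decay of AU-rich messages, was at 578 and 386 CPM in KO-GFP against 121 and 95.5 CPM in WT-GFP (2.15, SE 0.23, adjusted p = 0.111). The lower KO-GFP library was still well above both WT-GFP libraries. Plxna1, a semaphorin receptor, was at 35.2 and 40.7 CPM in KO-GFP against 15.2 and 15.5 CPM in WT-GFP (1.30, SE 0.15, adjusted p = 0.141). Ddit4, a stress-induced inhibitor of the growth kinase mTORC1, was at 297 and 240 CPM in KO-GFP against 108 and 85.4 CPM in WT-GFP (1.47, SE 0.17, adjusted p = 0.141). Cap2, an actin-binding protein, was at 13.5 and 16.3 CPM in KO-GFP against 4.41 and 3.94 CPM in WT-GFP (1.83, SE 0.22, adjusted p = 0.148). For each of these genes the 2 genotypes did not overlap, which was a condition for picking them. Lack of overlap is common in these data. In 21.7% of genes tested both KO-GFP libraries lay above both WT-GFP libraries, and in 19.2% both lay below.

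On the lower side, below Mid1, stood genes with smaller differences. Fos, an immediate early transcription factor that cells induce within minutes of a signal, was at 2.61 and 3.42 CPM in KO-GFP against 9.61 and 11.1 CPM in WT-GFP (log2 fold change -1.77, SE 0.27, adjusted p = 0.258). Zfp36, which like Zfp36l2 destabilises AU-rich messages and is itself induced by signals, was at 107 and 95.0 CPM in KO-GFP against 157 and 172 CPM in WT-GFP (-0.70, SE 0.12, adjusted p = 0.383). The 2 family members therefore stood on opposite sides, although neither passed. Runx3, the factor that directs CD8 lineage cells and silences Cd4, was at 14.4 and 15.8 CPM in KO-GFP against 28.6 and 25.6 CPM in WT-GFP (-0.84, SE 0.16, adjusted p = 0.418). Tspo, a cholesterol-binding protein of the outer mitochondrial membrane, was at 71.3 and 75.9 CPM in KO-GFP against 105 and 124 CPM in WT-GFP (-0.64, SE 0.13, adjusted p = 0.461). Dynlt1a, a dynein light chain, was at 0.70 and 1.31 CPM in KO-GFP against 6.01 and 4.49 CPM in WT-GFP (-2.36, SE 0.42, adjusted p = 0.383). Dynlt1a has near-identical neighbours on chromosome 17 (Dynlt1b, Dynlt1c and Dynlt1f), so its count is uncertain, and Dynlt1b was at 11.3 and 9.46 CPM in KO-GFP against 8.01 and 11.2 CPM in WT-GFP.

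**Figure D3:**
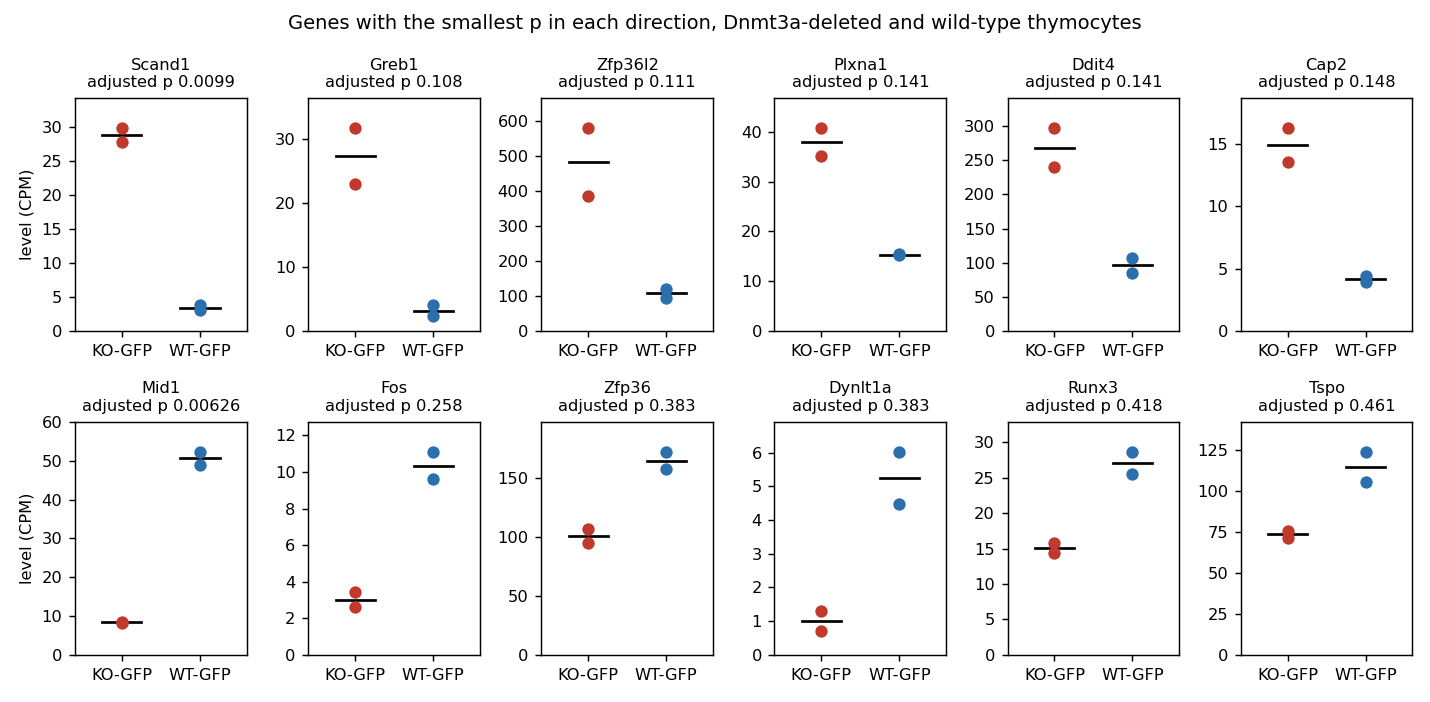
CPM of the 6 genes with the smallest p on the higher side (top) and the lower side (bottom), each panel with its own axis from 0; points are libraries, lines are group means, and titles give the adjusted p. The genes were picked among those whose genotypes do not overlap, so the gap in each panel is a condition of choice. Of the 12 genes 2, Scand1 and Mid1, have an adjusted p under 0.05.

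Some further genes were picked out after their values were seen. Adam12, a metalloprotease, was at 157 and 150 CPM in KO-GFP against 10.1 and 26.2 CPM in WT-GFP (log2 fold change 3.08, SE 0.41, adjusted p = 0.162). Tsc22d3, known as a gene that glucocorticoids induce in thymocytes, was at 541 and 350 CPM in KO-GFP against 140 and 121 CPM in WT-GFP (1.77, SE 0.22, adjusted p = 0.148). Neither overlapped between genotypes, but the WT-GFP libraries of Adam12 and the KO-GFP libraries of Tsc22d3 lay far from each other. Pik3ip1, an inhibitor of PI3 kinase, was at 396 and 298 CPM in KO-GFP against 186 and 198 CPM in WT-GFP (0.86, SE 0.16, adjusted p = 0.418). Cacna1e, a voltage-gated calcium channel, was at 163 and 114 CPM in KO-GFP against 49.7 and 60.7 CPM in WT-GFP (1.33, SE 0.20, adjusted p = 0.258). H2afx, a histone variant that is phosphorylated at DNA breaks, was at 173 and 216 CPM in KO-GFP against 102 and 82.6 CPM in WT-GFP (1.08, SE 0.17, adjusted p = 0.259). Pisd-ps3, a pseudogene of a mitochondrial decarboxylase and so open to reads of related copies, was at 89.7 and 23.1 CPM in KO-GFP against 0.27 and 0.70 CPM in WT-GFP (6.83, SE 0.84, adjusted p = 0.148). None of these passed edgeR's test, and DESeq2 called Adam12, Tsc22d3, Cacna1e, H2afx, Pik3ip1 and Pisd-ps3.

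The median gene of the double-positive stage was nearly level between the genotypes. Of 43 tested, 0 passed, and 3 were higher and 4 lower at an unadjusted p under 0.05 (5.43% and 3.03% of all genes tested). The median log2 fold change was 0.01. The members on the higher side at that level were Rag2, the partner of Rag1 (466 and 507 CPM in KO-GFP against 389 and 372 CPM in WT-GFP), the costimulatory receptor Cd28 and the transcription factor Ets2. Those on the lower side were Cd5, Cd6, Cd2 and Cd3d. Cd5, which restrains receptor signalling and is set by its strength, was at 236 and 208 CPM in KO-GFP against 298 and 329 CPM in WT-GFP (log2 fold change -0.50, SE 0.13, adjusted p = 0.53). Its relative Cd6 was at 353 and 341 CPM in KO-GFP against 421 and 480 CPM in WT-GFP. Cd2, an adhesion receptor, was at 111 and 131 CPM in KO-GFP against 181 and 177 CPM in WT-GFP (-0.56, SE 0.13, adjusted p = 0.483). Cd3d, a signalling chain of the receptor, was at 375 and 405 CPM in KO-GFP against 467 and 493 CPM in WT-GFP. Dntt, which adds bases at receptor gene junctions, was at 1667 and 1650 CPM in KO-GFP against 1687 and 1773 CPM in WT-GFP, and Ptcra, the pre-receptor alpha chain, at 44.3 and 57.3 CPM in KO-GFP against 52.8 and 60.1 CPM in WT-GFP.

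Of 38 genes of positive selection and mature thymocytes, 0 passed, 1 was higher and 5 were lower at an unadjusted p under 0.05 (5.43% and 3.03% of all genes), with a median log2 fold change of -0.12. Beside Runx3, the lower ones included the gut-homing integrin Itgb7, at 48.4 and 58.7 CPM in KO-GFP against 85.9 and 77.4 CPM in WT-GFP, the phosphatase Dusp10 and the survival GTPase Gimap5. The member on the higher side was Cd69, the early marker of selection, at 72.8 and 85.2 CPM in KO-GFP against 62.1 and 57.1 CPM in WT-GFP. Of 33 receptor chains and kinases, 0 passed and 2, Cd3d and the kinase Fyn, were lower at an unadjusted p under 0.05. Of 17 Notch targets, 0 passed and 1 was lower at that level, Notch3, a receptor that is itself a Notch target, at 90.0 and 80.3 CPM in KO-GFP against 106 and 117 CPM in WT-GFP. Of 23 genes of early progenitors and CD4-CD8- cells, 0 passed, Notch3 was lower, and Kit, the stem cell factor receptor, was higher at an unadjusted p under 0.05, at 11.8 and 11.2 CPM in KO-GFP against 7.93 and 4.88 CPM in WT-GFP. Of 12 stem cell genes tested, 0 passed and 0 lay under an unadjusted p of 0.05.

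Interferon response genes stood on the higher side in the Dnmt3a-deleted thymocytes. Of 31 tested, 0 passed the adjusted threshold, but 15 were higher and 0 lower at an unadjusted p under 0.05, beside 5.43% and 3.03% of all genes tested, and the median log2 fold change was 0.45. Usp18, which takes the ISG15 tag off proteins and restrains the interferon receptor, was at 43.9 and 26.0 CPM in KO-GFP against 11.5 and 9.60 CPM in WT-GFP (log2 fold change 1.73, SE 0.27, adjusted p = 0.281). Rsad2, the antiviral enzyme viperin, was at 11.2 and 12.7 CPM in KO-GFP against 5.39 and 4.49 CPM in WT-GFP (1.27, SE 0.23, adjusted p = 0.383). Mx2, an antiviral GTPase, was at 6.10 and 4.58 CPM in KO-GFP against 2.15 and 2.19 CPM in WT-GFP. These are low to moderate levels, and in each of these genes the genotypes did not overlap.

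Other members of the list also had positive fold changes. Oas2, which makes the messenger that activates RNase L, was at 12.96 and 9.36 CPM in KO-GFP against 6.40 and 3.75 CPM in WT-GFP. Ifit1, which binds viral RNA ends, was at 15.4 and 21.5 CPM in KO-GFP against 11.99 and 7.49 CPM in WT-GFP. Isg15 was at 19.3 and 18.5 CPM in KO-GFP against 13.5 and 10.9 CPM in WT-GFP. Ifih1, the sensor MDA5, was at 22.7 and 22.8 CPM in KO-GFP against 18.3 and 15.0 CPM in WT-GFP. Irf7, a transcription factor that amplifies the response, was at 38.8 and 35.3 CPM in KO-GFP against 31.9 and 25.9 CPM in WT-GFP and was not among the 15 genes under an unadjusted p of 0.05. Members with negative values include Bst2, at 41.3 and 42.6 CPM in KO-GFP against 46.8 and 46.5 CPM in WT-GFP, and the GTPase Igtp, at 166 and 177 CPM in KO-GFP against 173 and 179 CPM in WT-GFP. The mean level of the list was 4.55 and 4.59 log2 CPM in KO-GFP against 4.15 and 3.93 log2 CPM in WT-GFP. Within WT-GFP, replicate 2 was the lower, so the difference was smaller against WT-GFP replicate 1.

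Many interferon-induced genes carry an ISRE, the DNA site through which the interferon signal acts on them. Promoters are shown for the 3 genes with the smallest p among list members that hold its core (GAAA, any pair of bases, then GAAA again) on either strand within the 250 bases before the start, with the matched bases in capitals. Overlapping matches run together. The RefSeq sequences are on GRCm38, all from the minus strand and written 5′ to 3′: chr12:26456453-26456702 for Rsad2, chr7:104465194-104465443 for the first of the starts listed for Trim30a, and chr4:156200819-156201068 for Isg15.
Rsad2: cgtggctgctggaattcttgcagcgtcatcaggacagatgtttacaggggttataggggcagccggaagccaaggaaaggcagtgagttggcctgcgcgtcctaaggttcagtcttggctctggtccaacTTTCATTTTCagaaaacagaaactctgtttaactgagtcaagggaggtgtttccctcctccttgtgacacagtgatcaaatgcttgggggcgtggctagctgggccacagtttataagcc
Trim30a: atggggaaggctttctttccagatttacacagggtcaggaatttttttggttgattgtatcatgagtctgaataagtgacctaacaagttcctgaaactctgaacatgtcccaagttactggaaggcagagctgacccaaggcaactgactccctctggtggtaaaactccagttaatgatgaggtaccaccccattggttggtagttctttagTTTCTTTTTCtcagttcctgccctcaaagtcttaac
Isg15: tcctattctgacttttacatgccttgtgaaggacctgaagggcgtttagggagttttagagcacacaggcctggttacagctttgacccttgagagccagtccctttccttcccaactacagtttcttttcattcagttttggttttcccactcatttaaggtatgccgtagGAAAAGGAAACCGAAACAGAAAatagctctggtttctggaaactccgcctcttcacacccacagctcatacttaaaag
Rsad2 and Trim30a hold 1 match each and Isg15 holds 3. Promoters were found for 23 of the 31 genes tested, too few to describe the list as a whole. Of those 23, 12 hold the core, beside 2.70% of the promoters found for all genes tested. The list was chosen as interferon response genes, so this share says nothing about Dnmt3a loss. The core was in 6 of 9 promoters of members higher at an unadjusted p under 0.05 and in 6 of 14 of the other members. Trim30a, a regulator of innate signalling, was at 70.5 and 74.3 CPM in KO-GFP against 53.5 and 51.3 CPM in WT-GFP (log2 fold change 0.47, SE 0.11, adjusted p = 0.525). A match is only a stretch of letters, and factor binding was not measured.

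**Figure D4:**
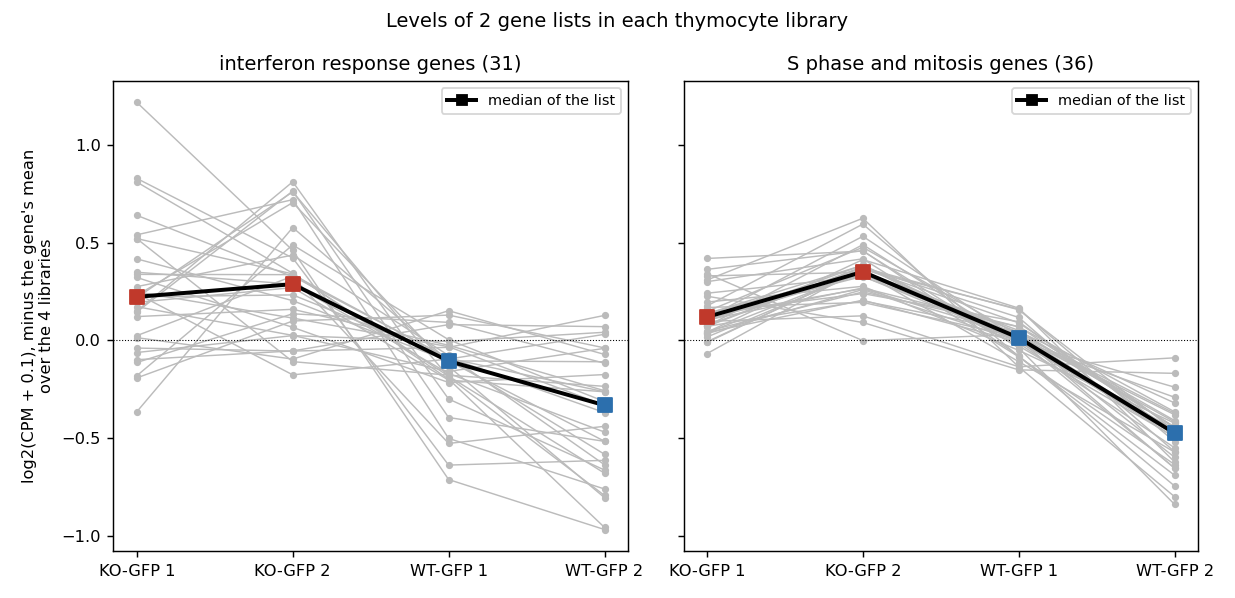
Levels of 31 interferon response genes (left) and 36 S phase and mitosis genes (right) in each library, as log2(CPM + 0.1) minus the gene's mean over the 4 libraries; grey lines are genes and the black line is the list median, with KO-GFP squares in red and WT-GFP squares in blue. The medians are 0.22 and 0.29 in KO-GFP against -0.11 and -0.33 in WT-GFP for interferon genes, and 0.12 and 0.35 in KO-GFP against 0.01 and -0.47 in WT-GFP for S phase and mitosis genes.

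Genes of DNA replication and mitosis also stood on the higher side. All 36 tested had a positive log2 fold change (53.1% of all genes did), 0 passed, and the median was 0.42. At an unadjusted p under 0.05, 16 were higher and 0 lower, beside 5.43% and 3.03% of all genes tested. Mki67, a protein of dividing cells, was at 1009 and 1079 CPM in KO-GFP against 743 and 469 CPM in WT-GFP (log2 fold change 0.78, SE 0.22, adjusted p = 0.53). Ccne2, cyclin E2 of the G1 to S transition, was at 29.6 and 36.9 CPM in KO-GFP against 21.8 and 13.7 CPM in WT-GFP. Bub1b, of the spindle checkpoint, was at 263 and 267 CPM in KO-GFP against 194 and 141 CPM in WT-GFP. Mcm3, of the replicative helicase, was at 202 and 270 CPM in KO-GFP against 190 and 131 CPM in WT-GFP, and here KO-GFP replicate 1 and WT-GFP replicate 1 were nearly level.

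The WT-GFP libraries differed from each other in this list as much as the genotypes did. Its mean level was 7.30 and 7.50 log2 CPM in KO-GFP against 7.17 and 6.68 log2 CPM in WT-GFP. On this measure WT-GFP replicate 1 lay nearer to KO-GFP replicate 1 than to WT-GFP replicate 2. The result therefore rests largely on the low level of WT-GFP replicate 2. Of 29 MYC and ribosome biogenesis genes, 0 passed and 3 were higher at an unadjusted p under 0.05, beside 5.43% of all genes tested. Among them was Polr1a, a subunit of RNA polymerase I, at 52.0 and 61.4 CPM in KO-GFP against 43.2 and 40.2 CPM in WT-GFP. Of 19 glycolysis genes, 0 passed and 0 lay under an unadjusted p of 0.05 in either direction.

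Cell death genes were split. Of 16 genes of the BCL2 family, 0 passed, and 2 were higher and 2 lower at an unadjusted p under 0.05 (5.43% and 3.03% of all genes tested). Bcl2l11, the death inducer BIM that removes self-reactive thymocytes, was at 218 and 136 CPM in KO-GFP against 116 and 98.6 CPM in WT-GFP (log2 fold change 0.72, SE 0.23, adjusted p = 0.561). Bid, an activator of the death pore proteins, was the other higher member. Bax, one of those pore proteins, was at 35.8 and 40.5 CPM in KO-GFP against 49.4 and 54.4 CPM in WT-GFP. Pmaip1, the p53-induced protein NOXA, was at 2.61 and 2.62 CPM in KO-GFP against 6.37 and 3.94 CPM in WT-GFP. Of 21 p53 targets, 0 passed, 2 were higher (Ddit4 and Trp53inp1) and 2 lower (Bax and Pmaip1) at that level.

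Among classes of genes known to need DNA methylation for their silence, most germline genes were at or near 0 in both genotypes. Germline Tdrd5 was an exception, at 204 and 148 CPM in KO-GFP against 216 and 257 CPM in WT-GFP. Some imprinted genes were expressed in both, with a summed CPM of 1452 and 1421 in KO-GFP against 1380 and 1380 in WT-GFP. Gnas alone was at 417 and 435 CPM in KO-GFP against 453 and 435 CPM in WT-GFP. Of the 47 imprinted genes in the table, 23 had enough counts to be tested. A further 7 had no count in any of the 4 libraries, and others, such as Peg3 and Ndn, had 1 count in total. Of 53 germline genes in the table, 25 had no count in any of the 4 libraries and 10 could be tested. Of these 0 passed, and 2 were higher and 1 lower at an unadjusted p under 0.05 (5.43% and 3.03% of all genes tested). Stag3, a meiotic cohesin subunit, was at 3.81 and 2.47 CPM in KO-GFP against 0.20 and 1.13 CPM in WT-GFP, and Tex15, a germ cell factor, at 2.35 and 3.72 CPM in KO-GFP against 1.68 and 1.44 CPM in WT-GFP. The lower one was the X-linked Xlr4a, at 20.3 and 26.0 CPM in KO-GFP against 30.4 and 37.9 CPM in WT-GFP. Of 23 imprinted genes tested, 0 passed, 3 were higher and 1 lower at that level, with a median log2 fold change of 0.30. They were the ubiquitin ligase Ube3a, at 148 and 133 CPM in KO-GFP against 108 and 106 CPM in WT-GFP, and Plagl1 and Nap1l5, each at 2.03 CPM or less in every library, and on the lower side Tspan32, at 50.7 and 57.9 CPM in KO-GFP against 70.6 and 71.9 CPM in WT-GFP. Of 18 Wnt pathway genes tested, 0 passed and 1, the receptor Fzd5, was higher at an unadjusted p under 0.05.

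Markers of other cell types were also summed, and their part in the differences above was not tested. Their summed CPM was 204 and 280 in KO-GFP against 190 and 261 in WT-GFP for 26 granulocyte markers, 280 and 294 in KO-GFP against 320 and 362 in WT-GFP for 20 B cell markers, and 119 and 182 in KO-GFP against 187 and 142 in WT-GFP for 24 NK and cytotoxic markers. For 24 monocyte and macrophage markers it was 142 and 172 in KO-GFP against 187 and 145 in WT-GFP, and for 22 erythroid markers 170 and 353 in KO-GFP against 233 and 157 in WT-GFP. Much of the granulocyte sum is Gfi1, a repressor that thymocytes also express, at 173 and 187 CPM in KO-GFP against 173 and 212 CPM in WT-GFP. The other 25 granulocyte markers summed to 30.6 and 92.8 CPM in KO-GFP against 16.4 and 48.9 CPM in WT-GFP, so replicate 2 was the higher in each genotype. The neutrophil protease Elane had 2 and 16 counts in KO-GFP against 0 and 5 in WT-GFP, and the NK receptor Ncr1 had 2 and 2 in KO-GFP against 4 and 9 in WT-GFP. KO-GFP replicate 2 had the most erythroid RNA, with the heme enzyme Alas2 at 5.15 and 74.4 CPM in KO-GFP against 21.1 and 6.56 CPM in WT-GFP. Of these 5 lists 0 genes passed, 14 of the 16 granulocyte markers tested had a positive log2 fold change (median 0.99), and 1 of the 18 B cell markers tested had one (median -0.39). Among 15 NKT and gamma-delta T markers tested, 0 passed, and Blk, a kinase that B cells and gamma-delta T cells share, was at 3.18 and 5.38 CPM in KO-GFP against 18.4 and 8.59 CPM in WT-GFP (log2 fold change -1.64, SE 0.43, adjusted p = 0.53). Lists of dendritic cell, megakaryocyte, regulatory T, effector T and thymic stroma markers gave 0 genes that passed and at most 1 member in a direction at an unadjusted p under 0.05.

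**Figure D5:**
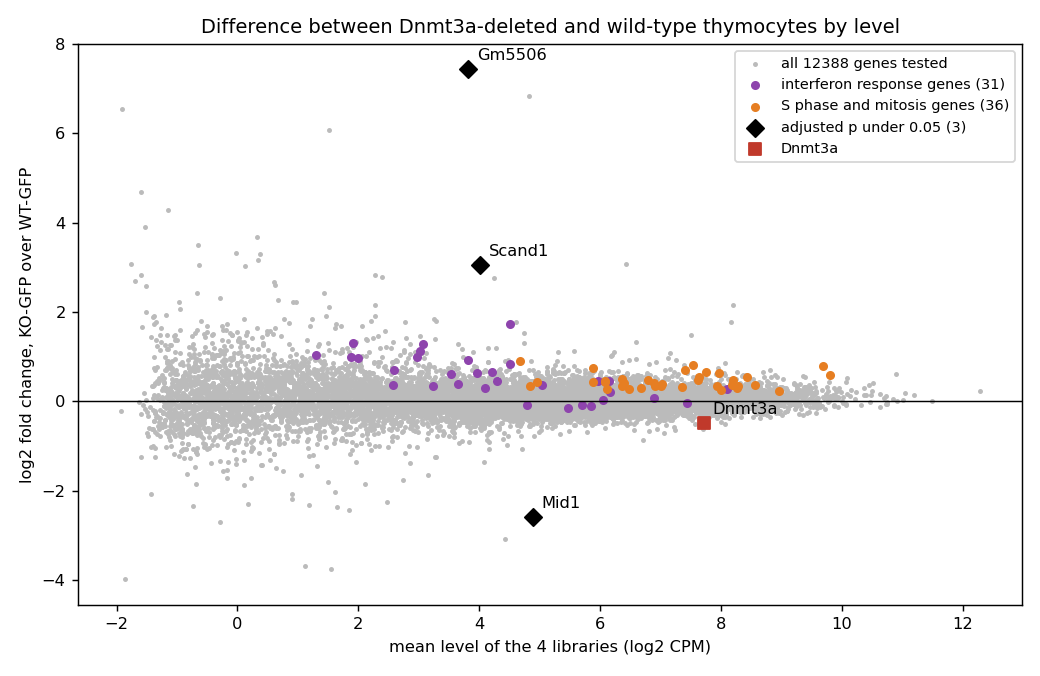
Log2 fold change of KO-GFP over WT-GFP against the mean level of the 4 libraries (log2 CPM), 1 point per gene tested. The 3 genes with an adjusted p under 0.05 (black) stand outside the cloud, Dnmt3a (red) lies within it at -0.49, and most interferon (purple) and all S phase and mitosis genes (orange) lie above the line at 0.

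The same gene deletion was also present in FLT3-ITD leukemias, whose comparison shares no library with the thymocytes. There 55 of 13720 genes passed in KO-ITD against WT-ITD (0.401%), 18 higher and 37 lower. Of these, 52 were also tested in thymocytes: 28 had the same sign, and 0 passed in thymocytes. In thymocytes 12 of the 52 had an unadjusted p under 0.05, while over all genes tested there the share was 8.46%. Of the 12, 6 had the same sign in both comparisons. Across 12341 genes the log2 fold changes of the 2 comparisons correlated at r of 0.012 and rho of -0.039 (genes are not independent replicates). The difference between the 2 effects was tested in 1 fit of 11 libraries, and edgeR called 0 of 13720 genes (0%), with 673 (4.91%) at an unadjusted p under 0.05. DESeq2 called 75. The count was 1 without KO-ITD replicate 2, 33 without WT-ITD replicate 3 and 0 without each of the other libraries.

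Single genes differed in how the comparisons lined up. Dnmt3a was lower in both, with a log2 fold change of -0.49 (SE 0.18) in thymocytes and -1.35 (SE 0.28, adjusted p = 0.0802) in leukemias. The difference of -0.83 (SE 0.46) between them did not pass (adjusted p = 0.816), so a smaller effect in thymocytes is not shown. Scand1 had the opposite sign, 3.05 in thymocytes and -0.99 in leukemias, a difference of -4.02 (SE 0.73) that did not pass (adjusted p = 0.418). Adam12 and Cacna1e, on the higher side in KO-GFP, were at -6.10 (adjusted p = 0.101) and -6.79 (adjusted p = 0.044) in leukemias, so that Cacna1e passed there in the other direction. In both genes WT-ITD replicate 3, the WT-ITD library with female transcripts, stood apart (CPM scaled over the 11 libraries). Adam12 was at 1.602, 0.65, 3.10 and 6.89 CPM in KO-ITD against 284, 323 and 1.40 CPM in WT-ITD. Cacna1e was at 0, 0.16, 0.60 and 0.13 CPM in KO-ITD against 33.1, 38.8 and 1.40 CPM in WT-ITD. Plxna1, Zfp36l2, Greb1 and Ddit4 were on the higher side in leukemias too (2.17, 1.04, 1.38 and 0.54), and Zfp36 and Fos on the lower side (-1.19 and -2.04), with 0 of these 6 past the threshold in either comparison. The interferon list had a median log2 fold change of -0.10 in leukemias (2 higher and 5 lower at an unadjusted p under 0.05, beside 9.90% and 9.56% of all genes there), and 0.45 in thymocytes. In the test of the difference between the 2 effects, 0 of the 31 genes passed and 4 had a lower fold change in leukemias than in thymocytes at an unadjusted p under 0.05, beside 2.42% of all genes. The S phase and mitosis list had 0.11, with 0 members under that level.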

How the data were processed

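Polyadenylated RNA was sequenced, and the authors deposited estimated counts of fragments per gene and per transcript for 17 libraries, without scaling to depth. The submitters' processing notes name TopHat2 2.0.10, Cufflinks 2.1.1 and Cuffdiff 2.1.1 or 2.2.1 with build mm9. The sources used here do not say which of them wrote the counts or whether strand was used, so overlapping, antisense and near-identical genes are uncertain. Between 98.3% and 98.4% of nonzero estimated counts were whole within 0.001, and all were rounded. The deposited FPKM files were not used.

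The 4 thymocyte libraries were fitted alone in R 4.3.3 with edgeR 4.0.16: filterByExpr (12388 of 23458 genes kept), trimmed mean of M-values scaling and the quasi-likelihood F test, two-sided, with Benjamini-Hochberg adjustment over all genes tested and a threshold of 0.05. The effect in leukemias and its difference from the thymocyte effect come from 1 fit of the 11 retroviral libraries. Levels are CPM, and SE was derived from the F statistic. The test was tested on simulated data: it recovered known changes, but where single genes varied far above the trend its false calls exceeded the nominal share, so a call of 1 gene needs care.

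Same-numbered libraries did not deviate together (r = -0.374), so numbers were not used as pairs. Members and lists were chosen with earlier results of these data known. By rule, the text names the genes that passed and, where fewer than 6 did in a direction, the 6 with the smallest p, leaving out predicted names, plus the methylation machinery and defining thymocyte genes; some genes are not reported here. Promoters are RefSeq's on GRCm38. Alternatives were RLE size factors, library totals, other filters, DESeq2 1.42.0, limma voom 3.58.1, all 17 libraries in 1 fit, a replicate block and leaving out each library.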

Additional observations from a re-analysis of the deposited data

Results flagged for a closer look

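Zfp36 and Runx3 each had 1 of the 4 KO-ITD leukemias far from the other 3 (CPM scaled over the 11 retroviral libraries). Zfp36 was at 46.2 CPM in KO-ITD replicate 4, against 13.3, 12.4 and 14.4 CPM in replicates 1 to 3, and the gap took 0.939 of the group's range. Runx3 was at 73.2 CPM in KO-ITD replicate 3, against 9.86, 7.19 and 8.77 CPM in replicates 1, 2 and 4, and the gap took 0.960 of the range. Chance alone marks about 1 in 20 such groups, and 13 genes were examined. The thymocyte values of both genes do not use these libraries.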

How the results depend on the processing

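The 3 genes that passed did so again with RLE size factors, no filter on low counts, at least 1 CPM in 2 libraries, a 2-fold minimum, a GC content and length offset and robust dispersions, the last 2 added after seeing the data, and each of these gave no further gene. With library totals only 8 genes passed (7 higher), with DESeq2 83 (61 higher, 22 lower) and with limma voom 2 (1 higher, 1 lower), which lacks Gm5506. In 1 fit of all 17 libraries 0 passed (0 higher, 0 lower), with 74 at an unadjusted p under 0.05. Leaving out 1 library gave 6 to 30 genes, 5 to 20 higher and 1 to 10 lower, and the 3 genes passed each time. The replicate block gave 5 genes (4 higher), but the numbers do not pair the libraries. Pairing the numbers crosswise, tried after seeing the data, gave 356 genes, 277 higher and 79 lower.

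Counts of list members at an unadjusted p under 0.05 were recomputed as an addition after seeing the data. The interferon list had 0 members higher in the fit of all 17 libraries and 4 to 13 without 1 library. The S phase and mitosis list had 9 without a filter on low counts, 0 with all 17 libraries, 9 with the replicate block, 35 with crossed numbers and 2 to 31 without 1 library. The difference between leukemias and thymocytes gave 75 genes with DESeq2 and 0 to 33 without 1 library.

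Reversed signs were confined, among named genes and alternatives run, to genes that did not pass. Zbtb38, near 0, became -0.0095 with RLE size factors, -0.050 with library totals, -0.029 without a filter, -0.015 with DESeq2, -0.0076 with limma voom, -0.033 with all 17 libraries, -0.00025 with crossed numbers and -0.13 with the GC content and length offset. Zbtb4 became -0.017, -0.0019 and -0.049 with library totals, all 17 libraries and that offset, and Cd8b1 -0.0039 with library totals. Without 1 library, values ran from -0.17 to 0.49 for Dnmt3b, -0.55 to 0.20 for Tet2, -0.27 to 0.19 for Mbd1, -0.14 to 5.8e-05 for Mbd3, -0.11 to 0.072 for Zbtb38, -0.043 to 0.068 for Zbtb4, -0.19 to 0.17 for Cd4, -0.0059 to 0.095 for Cd8b1, -0.38 to 0.014 for Ptcra and -2.80 to 2.51 for transcript NM_007872. The depth of 16606964 to 25331908 counts leaves genes under about 1 CPM with wide errors. Log2 fold changes correlated with GC content (rho -0.197) and transcript length (0.205) across 11583 genes.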
